A study of Mus musculus with 5 samples.

Results

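The genes described here are 10 transcripts that ERK signaling is known to raise: the phosphatases Dusp4, Dusp5 and Dusp6, the inhibitors Spry1, Spry2, Spry4 and Spred1, the transcription factors Etv4 and Etv5, and Phlda1. They were taken by gene symbol, with no threshold on their values, from the 17923 genes listed in at least 1 of 5 RNA-Seq libraries. All 10 were listed in every library and all 10 passed the filter on low counts. The libraries came from cell lines grown out of mouse thyroid tumors, and all of them carry BrafV600E, the mutant kinase that drives the RAS, RAF, MEK and ERK cascade in these tumors. The groups compared had Ctnnb1, the gene of β-catenin, intact (BVE-Ctnnb1wt, wt, 2 libraries) or deleted (BVE-Ctnnb1null, null, 3 libraries). Both wt libraries are the BVE line at passage 20, with wt 1 labelled as grown without thyroid-stimulating hormone (TSH) and wt 2 with it. Each null library is a line of its own: null 1 is BVECTN_4 at passage 8 without TSH, null 2 is BVECTN_4A at passage 11 and null 3 is BVECTN_5 at passage 7, and for the last 2 no TSH label is given. The general protocol describes TSH in the culture medium and higher passage numbers for both genotypes, which differs from these labels. Because 1 line stands for the wt and each null line was sequenced once, the effects of genotype, line and passage cannot be told apart, and p-values measure the spread between these libraries. The driver of the deletion, the age of the donor mice and whether a line is a single clone are not given in the sources used here.

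BRAF with the V600E change signals without RAS and keeps MEK and ERK active. ERK then turns on genes whose products act back on the cascade. Dual-specificity phosphatases remove the phosphates that activate ERK, Sprouty and Spred proteins act upstream at the receptors, RAS and RAF, and Etv4 and Etv5 carry the signal on to further genes. Since these transcripts follow ERK activity closely, they are widely used as a readout of pathway output, and in tumors with BRAF V600E this output is known to persist even though the feedback genes are expressed, because the mutant kinase escapes inhibitors that act on RAS. In thyroid follicular cells TSH acts through its receptor and cyclic AMP and supports differentiation, which high ERK output is known to oppose.

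Total estimated counts were 30432737 in wt 1, 30713079 in wt 2, 29929677 in null 1, 29360002 in null 2 and 29415980 in null 3, so the totals were alike. Fewer genes were listed in wt 1 and wt 2 (14565 and 14341) than in null 1, null 2 and null 3 (15782, 15142 and 15972). A count of 0 would allow a level of up to 3 counts, close to 0.10 CPM (counts divided by each library's total and rescaled), which covers counting error only. Every gene of the 10 was above that limit in every library, the lowest being Spry4 with 39 counts in wt 2. Libraries are compared below in CPM after TMM normalization, which scales out differences in RNA composition, and genes are compared with each other in FPKM, which is scaled to transcript length.

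Ctnnb1 did not fall in the libraries labelled null. Its TMM-normalized level was 251 and 356 CPM in wt 1 and wt 2 and 418, 572 and 344 CPM in null 1, null 2 and null 3, with a log2 fold change of 0.55 (SE 0.44, adjusted p = 0.517, edgeR). Values per transcript cannot show which exons were deleted, so this neither checks the deletion nor the labels, and the groups are named throughout as labelled.

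The labelled cell type, thyroid epithelial cells, was only in part visible in the markers. Of 11 thyroid follicular markers, 6, among them Tshr, Foxe1, Duox2, Dio1 and Slc26a4, were under the filter on low counts, and the summed FPKM of the list was 15.3 and 20.6 in wt 1 and wt 2 and 35.2, 68.5 and 4.84 in null 1, null 2 and null 3, with Nkx2-1 the most abundant on average. Pax8 exceeded it in null 1 (18.1 against 9.26) and null 3 (2.56 against 0.26) and was above both wt libraries in every null library. Tg went the other way and was below both wt libraries in every null library. Its TMM-normalized level was 8.24 and 10.2 CPM in wt 1 and wt 2 and 0.31, 3.57 and 2.41 CPM in null 1, null 2 and null 3. Summed FPKM of 7 epithelial markers was 1077 and 1746 in wt 1 and wt 2 and 12270, 706 and 1222 in null 1, null 2 and null 3, led by Krt7 in null 1 and null 3 and by Krt8 or Krt18 in the others. For 12 mesenchymal and fibroblast markers, led by Vim, it was 1884 and 3770 in wt 1 and wt 2 against 86.7, 3242 and 3726 in the null lines. The null lines therefore stood apart from each other. Null 1 had 0 counts for Acta2, Pdgfrb and Col3a1, null 2 had 0 counts for Epcam and Cdh1, and null 3 was the only library with an FPKM of Dcn (84.7) or Thy1 (88.5) above 1. Other markers of the same lists went otherwise. Null 2 had an FPKM of 111 for Krt7, 230.5 for Krt8 and 346.3 for Krt18. In null 3 Lum was at 0.02, Epcam (59.6) was above wt 1 (5.04) and wt 2 (4.61), and Krt8 (201.5) was below both. Markers of endothelium and C cells were low, and of the leukocyte markers Ptprc, Cd3e and Adgre1 were listed in no library. The summed FPKM was at most 0.68 for endothelium and at most 1.24 for C cells. Of 7 leukocyte markers the most abundant was Cd68, whose FPKM was 6.09 and 14.2 in wt 1 and wt 2 and 59.8, 1.00 and 39.9 in null 1, null 2 and null 3. In these bulk libraries fewer cells of a type and less RNA per cell cannot be told apart.

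The promoters of 4 of the genes are shown here because the values below turn on them. Dusp6, Etv5 and Dusp5 were more than 2-fold lower in wt 2 than in wt 1. Spred1 was the only gene of the 10 whose groups did not overlap. Among all genes tested, 22.6% had all null libraries above both wt libraries in TMM-normalized CPM and 17.3% had all below, so this does not set Spred1 apart. RefSeq promoter entries of GRCm38.p6 were matched for 6 of the 10 genes (Dusp5, Dusp6, Spry1, Spry2, Spred1 and Etv5). Bases before the first annotated start are printed 5′ to 3′ on the strand of the gene, from chr10:99262981-99263230 (plus strand) for Dusp6, chr16:22439720-22439820 (minus strand) for Etv5, chr19:53528895-53529108 (plus strand) for Dusp5 and chr2:117120821-117121070 (plus strand) for Spred1. Capitals mark CGGAA on either strand (TTCCG when read on the strand shown), a form of the site that ETS factors bind. They also mark the CArG box, the element of serum response factor. Both motifs were chosen after the sequences had been seen, and Etv5 holds neither. Other forms of the ETS site were neither searched nor marked, so stretches without capitals may hold them.
Dusp6: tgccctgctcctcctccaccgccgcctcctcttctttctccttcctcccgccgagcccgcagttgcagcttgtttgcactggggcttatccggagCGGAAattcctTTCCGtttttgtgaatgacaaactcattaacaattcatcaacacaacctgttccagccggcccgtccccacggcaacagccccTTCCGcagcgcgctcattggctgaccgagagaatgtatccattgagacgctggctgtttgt
Etv5: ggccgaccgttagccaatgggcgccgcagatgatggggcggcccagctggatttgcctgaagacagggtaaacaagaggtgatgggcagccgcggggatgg
Dusp5: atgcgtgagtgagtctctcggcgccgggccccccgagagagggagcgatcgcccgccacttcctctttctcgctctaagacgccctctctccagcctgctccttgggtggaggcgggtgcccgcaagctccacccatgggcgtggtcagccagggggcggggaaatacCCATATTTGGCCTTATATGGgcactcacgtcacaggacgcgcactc
Spred1: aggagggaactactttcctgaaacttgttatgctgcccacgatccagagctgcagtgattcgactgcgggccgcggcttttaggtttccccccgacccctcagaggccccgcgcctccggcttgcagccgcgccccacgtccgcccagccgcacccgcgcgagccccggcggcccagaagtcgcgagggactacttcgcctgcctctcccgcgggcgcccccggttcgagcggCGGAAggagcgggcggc
Dusp6 held 3 matches to CGGAA and Spred1 held 1, and no other of the 6 promoters had any. Of 32851 RefSeq promoters, 25.2% had at least 1 match to CGGAA in the 250 bases before the start. Dusp5 held 2 CArG boxes side by side and no CGGAA, and the other 5 held no CArG box, against 1.47% of all promoters with at least 1. GGGCGG on either strand, the box of SP factors, was searched as well and was in 4 of the 6 (all but Dusp6 and Spry2), against 32.7% of all promoters. The shares were counted over 250 bases, and the stretch of Dusp5 is 214 bases and that of Etv5 101 bases. A match is a description of the letters, not a binding site.

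Per transcript length, Phlda1 was the most abundant of the 10 and Spry4 the least. Mean FPKM over the 5 libraries was 77.3 for Phlda1, 49.1 for Etv4, 37.9 for Dusp6, 35.8 for Dusp4 and 29.4 for Dusp5. It was 14.2 for Etv5, 13.7 for Spry1, 12.5 for Spry2, 9.34 for Spred1 and 3.49 for Spry4. Phlda1 stood at percentile 91.8 of the mean FPKM of all 13240 genes tested, and Spry4 at percentile 38.0. Ranges over the libraries overlapped between all neighbours in this order. Within libraries, Spred1 was above Spry4 in 5 of 5, while for each other pair of neighbours at least 1 library had the opposite order. Most libraries went against the order of the means for Etv5, above Spry1 in 1 of 5, and Dusp6, above Dusp4 in 2 of 5. The spread was wide: the highest FPKM was 48.7 times the lowest for Spry4, 16.2 times for Etv5 and 15.8 times for Spred1, and 1.92 times for Spry1, the steadiest of the 10.

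**Figure D1:**
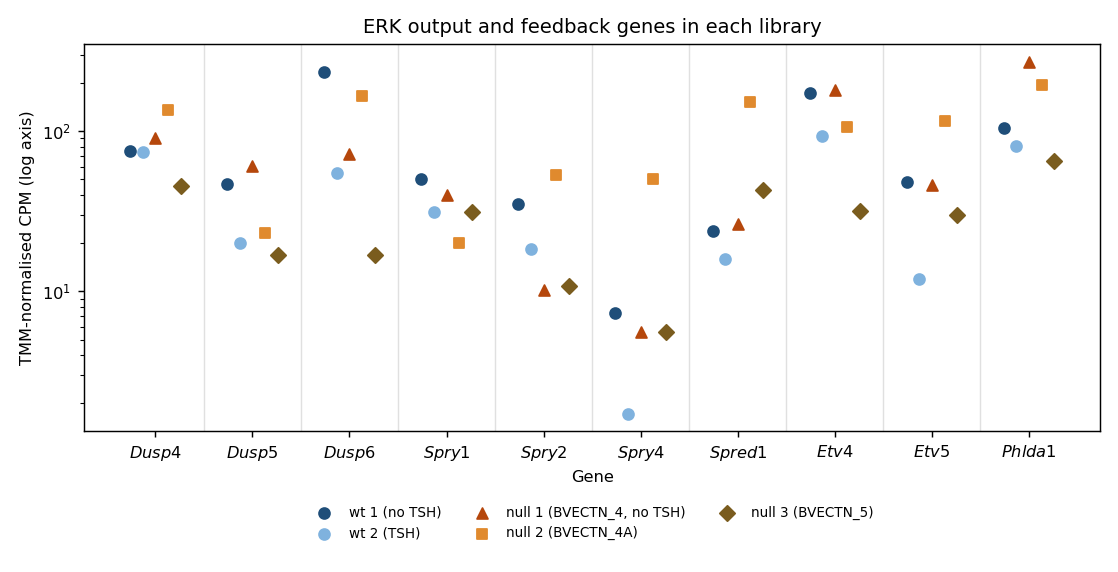
TMM-normalized CPM (log axis) of each of the 10 genes in each library, 1 point per library, with the wt libraries in blue and the null libraries in orange to brown. Wt 1 lies above wt 2 for every gene, narrowly for Dusp4. Spred1 is the only gene of the 10 with all 3 null points above both wt points, an order that 22.6% of all genes tested had.

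The first comparison asked whether ERK output and feedback genes differed between the libraries labelled null and wt. No gene of the 10 was called in either direction at an adjusted p under 0.05, and neither was any of the 13240 genes tested, 0.0% higher and 0.0% lower (edgeR, Benjamini-Hochberg). At an unadjusted p under 0.05 the count was 0 of 10 as well, where 12.4% of all genes were higher and 6.07% lower. DESeq2 also called 0 of the 10, where it called 8.48% of all genes higher and 3.71% lower. In TMM-normalized CPM, 1 of the 10 genes (Spred1) had all null libraries above both wt libraries, against 22.6% of all genes, and 0 of 10 had all below, against 17.3%. In FPKM the counts were again 1 and 0, against 35.9% and 7.22% of all genes. Leaving out a library moved the counts in TMM-normalized CPM, with 3 genes above without wt 1 and without null 3, and 2 below without wt 2 and 1 without null 2. Shares of all genes under these omissions are not given here, so these counts have no background to be read against. The median log2 fold change was 0.14 over the 10 genes and 0.29 over all genes tested, with 5 of the 10 above 0 and 5 below, where 59.2% of all genes were above 0. The split depended on the scale, with 9 of 10 above 0 when libraries were scaled to their totals (77.6% of all genes) and 8 of 10 in limma on log2(FPKM + 0.1) (71.7%). The median of the 10 was -0.20 without wt 2 and -0.06 without null 2.

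Among the phosphatases, Dusp4 acts on ERK in the nucleus. Its level was 75.1 and 74.4 CPM in wt 1 and wt 2 and 91.1, 136 and 45.4 CPM in null 1, null 2 and null 3. The wt libraries were almost equal and the null libraries lay on both sides of them (log2 fold change 0.28, SE 0.55, adjusted p = 0.802, edgeR, and -0.22 without null 2). Dusp5, another nuclear ERK phosphatase, had 46.9 and 20.1 CPM in wt 1 and wt 2 and 60.4, 23.3 and 16.8 CPM in the null libraries in the same order. The highest level was in null 1 and the lowest in null 3, with wt 1 and wt 2 between them, and the log2 fold change was -0.0014 (SE 0.71, adjusted p = 0.999, edgeR), positive in FPKM and when libraries were scaled to their totals, and between -0.77 without null 1 and 0.65 without wt 1. Dusp6 is the cytoplasmic phosphatase specific for ERK and among the most used markers of its output. It had 235 CPM in wt 1, 54.7 in wt 2, 71.5 in null 1, 166 in null 2 and 16.9 in null 3. Its highest and next highest levels were thus in 1 library of each group, and its lowest, in null 3, was 9.82-fold under null 2. The log2 fold change of Dusp6 was -0.77, with a 95% confidence interval from -3.10 to 1.56 (adjusted p = 0.689, edgeR). It was 0.55 without wt 1, -1.57 without wt 2 and -1.81 without null 2.

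Sprouty proteins inhibit signaling from receptor tyrosine kinases to RAS. Spry1 had 50.5 and 31.1 CPM in wt 1 and wt 2 and 40.1, 20.2 and 31.5 CPM in null 1, null 2 and null 3. The groups overlapped, with wt 1 above and null 2 below all others, and a log2 fold change of -0.42 (SE 0.51, adjusted p = 0.675, edgeR) was found that turned positive, 0.12, when libraries were scaled to their totals. Spry2 had 35.2 and 18.3 CPM in the wt and 10.2, 52.9 and 10.8 CPM in the null libraries. Null 2 was highest and the other null lines were the lowest of all, and the log2 fold change of -0.12 (SE 0.85, adjusted p = 0.947, edgeR) likewise changed sign with that scaling. It was -1.44 without null 2, and 0.24, 0.22 and 0.35 without null 1, null 3 and wt 1. Spry4 had 7.38 and 1.73 CPM in the wt and 5.55, 50.3 and 5.60 CPM in the null libraries. Its level in null 2 was 9.07-fold that in null 1, and null 1 and null 3 lay between wt 1 and wt 2. Its log2 fold change of 2.17 had the widest interval of the 10, from -0.86 to 5.19 (adjusted p = 0.391, edgeR). The fold change of Spry4 was 0.20 without null 2, 1.37 without wt 2 and 3.48 without wt 1.

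Spred1 joins neurofibromin, the GTPase-activating protein of RAS, at the membrane. It had 23.8 and 15.9 CPM in wt 1 and wt 2 and 26.1, 151 and 42.8 CPM in null 1, null 2 and null 3. All 3 null libraries were above both wt libraries, as in 22.6% of all genes tested, although null 1 exceeded wt 1 only slightly. Mean FPKM was 2.565 ± 1.04 for wt (SD, n = 2) and 13.9 ± 13.1 for null (SD, n = 3). A log2 fold change of 1.89 was estimated (SE 0.84, 95% confidence interval -0.12 to 3.89, unadjusted p = 0.0615, adjusted p = 0.287, edgeR), with the lowest p of the 10. Without null 2 the fold change was 0.71.

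Etv4 and Etv5 are ETS factors of the PEA3 group that ERK both induces and activates. Etv4 had 174 and 93.8 CPM in wt 1 and wt 2 and 179.7, 105.5 and 31.9 CPM in null 1, null 2 and null 3. Null 3 was 5.63-fold under null 1 and below all other libraries, and the log2 fold change was -0.34 (SE 0.73, adjusted p = 0.822, edgeR), positive when scaled to library totals and without wt 1 (0.080) or null 3 (0.037). Etv5 had 48.0 and 12.0 CPM in the wt and 46.3, 116 and 30.1 CPM in the null libraries. The 2 factors thus had their highest level in different lines, Etv4 in null 1 and Etv5 in null 2. For Etv5 the log2 fold change was 1.10 (SE 0.83, adjusted p = 0.494, edgeR). It was 0.26 without null 2, 0.32 without wt 2 and 2.34 without wt 1.

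Phlda1 encodes a pleckstrin homology-like protein and belongs to common signatures of MEK and ERK output. It had 104.5 and 80.2 CPM in wt 1 and wt 2 and 271, 194 and 65.4 CPM in null 1, null 2 and null 3. The groups overlapped through null 3, which was under both wt libraries. Its log2 fold change was 0.94 (SE 0.65, adjusted p = 0.456, edgeR). In two-sided exact permutation tests of log2(FPKM + 0.1), the p of the 10 genes lay between 0.2 for Spred1 and 1, where 2 libraries against 3 cannot give less than 0.1.

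**Figure D2:**
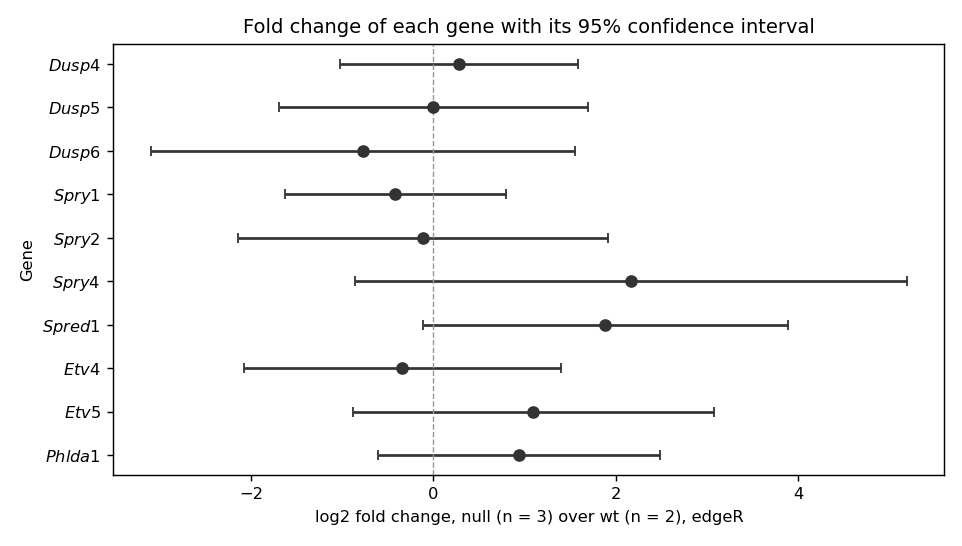
Log2 fold change of each gene in the 3 null over the 2 wt libraries (points) with its 95% confidence interval (bars), both from edgeR, with no change as the dashed line. Every interval includes 0, and that of Spred1 comes closest to leaving it out, from -0.12 to 3.89.

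Since the null lines differed from each other, each was set beside the mean of both wt libraries. These ratios have no replicate check and share their wt libraries. The wt libraries differed, by 4.30-fold for Dusp6, so ratios and counts past 2-fold depend on which wt library is used. FPKM as deposited would shift them, since the median gene had a log2 ratio of 0.51 in null 1, 0.58 in null 2 and 0.68 in null 3, so each ratio below is a log2 ratio of FPKM + 0.1 relative to the median of all genes tested. In null 1, the line with the highest sum of epithelial markers, 1 of 10 genes was at least 2-fold higher (Phlda1, 1.496), against 23.5% of all genes, and 2 were at least 2-fold lower (Spry2, -1.45, and Dusp6, -1.12), against 22.0%. In TMM-normalized CPM, Dusp6 in null 1 (71.5) lay between wt 1 (235) and wt 2 (54.7), so its direction turns with the wt library. Spry2 (10.2) lay under both wt 1 (35.2) and wt 2 (18.3), but by less than 2-fold under wt 2. In null 2, 5 of 10 were at least 2-fold higher, against 24.3%, and 0 were lower, against 21.1%. Members near the limit set these counts, since in TMM-normalized CPM relative to the median gene Spry2 was at 0.97, under 2-fold, and Spry1 at -1.03, past it. In null 3, 0 of 10 were higher, against 23.2%, and 4 were lower, against 21.4%. The median of the 10 was 0.24 in null 1, 0.96 in null 2 and -0.66 in null 3. Levels of epithelial and mesenchymal markers, given above, differed between these lines together with the 10 genes, and their part in these ratios was not tested.

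The 5 genes at least 2-fold higher in null 2 were Spry4 (9.89-fold), Spred1 (7.27-fold), Etv5 (3.82-fold), Phlda1 (2.17-fold) and Spry2 (2.00-fold). Against wt 1 alone, in TMM-normalized CPM, Phlda1 (194 against 104.5) and Spry2 (52.9 against 35.2) were less than 2-fold higher. Spry4 had 50.3 CPM in null 2 against 7.38 in wt 1 and 1.73 in wt 2, and Etv5 had 116 against 48.0 and 12.0. Spry1 went the other way in null 2, 1.97-fold lower than the wt mean. Dusp6 was close to that mean at 1.15-fold, although the mean joins unlike wt libraries (166 CPM in null 2, 235 in wt 1 and 54.7 in wt 2). Sprouty genes were therefore spread from one end of the 10 to the other in this line. In null 3 the 4 genes at least 2-fold lower were Dusp6 (9.12-fold), Etv4 (4.41-fold), Spry2 (2.61-fold) and Dusp5 (2.12-fold). Against wt 2 alone, in TMM-normalized CPM, Dusp5 (16.8 against 20.1) and Spry2 (10.8 against 18.3) were less than 2-fold lower. Dusp6 (16.9 against 54.7) and Etv4 (31.9 against 93.8) stayed over 2-fold lower. In null 3, Spred1 was 1.97-fold higher than the wt mean, the highest of the 10, and Spry4 differed by 1.08-fold. Dusp6 and Spred1, both ERK targets, thus lay at opposite ends in null 3. Null 1 and wt 1 are the pair both labelled as grown without TSH. Between them the median of the 10 was -0.09, Phlda1 was 2.46-fold higher, Spry2 was 3.59-fold lower and Dusp6 was 3.45-fold lower in null 1. No other gene of the 10 differed by 2-fold in this pair. Of all 13240 genes tested, 3188 were at least 2-fold higher and 3018 at least 2-fold lower.

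The 10 genes also varied among the null lines. The highest null level in TMM-normalized CPM was between 1.99 and 9.82 times the lowest over the 10 genes, with a median of 4.66, against 2.76 for all genes. It was at least 2-fold for 9 of 10, all but Spry1, and for 70.2% of all genes. Over all 5 libraries, the highest TMM-normalized level was in null 2 for 5 genes (Dusp4, Spry2, Spry4, Spred1 and Etv5), in null 1 for 3 (Dusp5, Etv4 and Phlda1) and in wt 1 for 2 (Dusp6 and Spry1). The lowest was in null 3 for 5 genes (Dusp4, Dusp5, Dusp6, Etv4 and Phlda1) and in wt 2 for 3 (Spry4, Spred1 and Etv5).

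**Figure D3:**
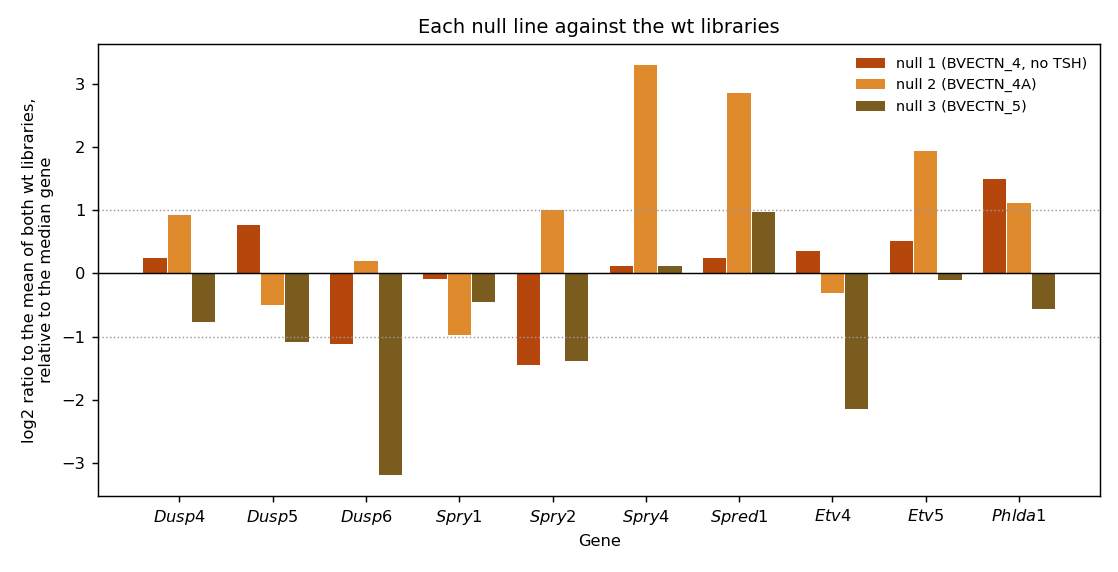
Log2 ratio of FPKM + 0.1 in each null line to the mean of both wt libraries, relative to the median gene, with 1 bar per line and dotted lines at 2-fold. Null 2 has the tallest bars upward, 3.31 for Spry4 and 2.86 for Spred1, and null 3 the longest downward, -3.19 for Dusp6 and -2.14 for Etv4.

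The other contrast in the labels is TSH within the BVE line, with 1 library on each side. All 10 genes were lower in wt 2, with TSH, than in wt 1, without it, in FPKM, in TMM-normalized CPM and relative to the median gene. The median log2 ratio of the 10 was -0.92 relative to the median gene. Of the 10, 4 were at least 2-fold lower (Dusp6, Etv5, Spry4 and Dusp5) and 0 were higher, where 5.53% of all genes were at least 2-fold lower and 5.72% higher. With 1 library per label, TSH and any other difference between the libraries cannot be told apart, and the intervals below cover counting error only.

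Dusp6 was 4.30-fold higher in wt 1 than in wt 2 (95% exact interval 4.04 to 4.57, 6017 and 1234 counts). Spry4 was 4.27-fold higher (3.01 to 6.19, 189 and 39 counts) and Etv5 4.01-fold higher (3.51 to 4.59, 1229 and 270 counts). Dusp5 followed with 2.33-fold (2.09 to 2.60). A cytoplasmic phosphatase, a Sprouty gene and an ETS factor hence showed differences of like size with overlapping intervals, although their levels in wt 1 ranged from 7.38 to 235 CPM. Smaller ratios were found for Spry2 (1.93-fold), Etv4 (1.85-fold), Spry1 (1.62-fold), Spred1 (1.499-fold) and Phlda1 (1.30-fold). Dusp4 was the exception, at 1.01-fold, with an interval from 0.94 to 1.08 that includes no difference. The nuclear phosphatases Dusp4 and Dusp5 thus differed from each other in this pair, as did Etv4 and Etv5, whose exact intervals (1.76 to 1.95 and 3.51 to 4.59) did not overlap. Tshr, the receptor of TSH, had 5 counts in wt 1 and 3 in wt 2, and its part in this difference was not tested.

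Other genes of the pathway differed in this pair by list. Among 15 immediate early and later ERK targets the median log2 ratio of wt 2 to wt 1 relative to the median gene was -0.71. Of these, 14 were below 0 (6620 of all 13240 genes) and 5 were at least 2-fold lower (5.53% of all genes). Named after their values were seen, these 5 were Egr1 (-3.08), Fosl1 (-2.06), Ier2 (-1.34), Epha2 (-1.22) and Myc (-1.22), and the 1 gene above 0 was Ier3 (0.89). For 11 RAS, RAF, MEK and ERK genes, which carry the signal, the median was -0.05 with 0 at least 2-fold lower, and for 11 receptor tyrosine kinases it was 0.07 with 0. It was -0.07 for the other MAP kinase phosphatases, with 2 of 7 at least 2-fold lower (Dusp2 and Dusp8), and -0.60 for the other Sprouty and Spred genes, with 1 of 3 (Spred3), all named after their values were seen. It was -0.19 for the other ETS factors and -0.31 for the other inhibitors, with 0 in each. Among cell type markers in the same pair, the median was 0.70 for the epithelial list, with 1 of 7 below 0, and 0.06 for the mesenchymal list, with 5 of 10 tested below 0 and Vim, at 1.39, carrying its sum. It was 0.28 for the 5 follicular markers tested, from -1.11 for Slc5a5 to 0.89 for Nkx2-1. Both leukocyte markers tested were over 2-fold higher in wt 2 (Cd68, 1.39, and Lyz2, 1.52, the latter with 16 and 45 counts). The 1 C cell marker tested, Calca, was at -0.15. Their part in the result was not tested.

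**Figure D4:**
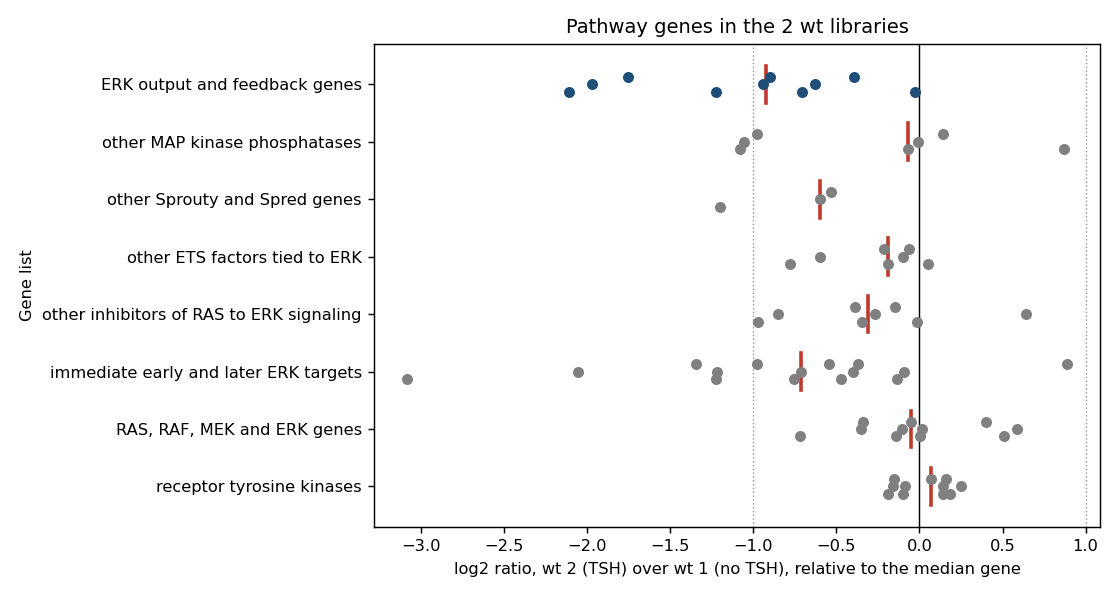
Log2 ratio of FPKM + 0.1 in wt 2 (TSH) to wt 1 (no TSH), relative to the median gene, with 1 dot per gene in 8 lists of pathway genes, the red bar at the median of each list and dotted lines at 2-fold. All 10 ERK output and feedback genes are left of 0, with a median of -0.92, while the receptor tyrosine kinases gather around 0.

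For the contrast of null with wt, 7 further lists of the pathway were counted in the same fit, and 0 genes of any were called. The 7 other MAP kinase phosphatases had a median log2 fold change of 0.87, all above 0 (59.2% of all genes), with 0 at an unadjusted p under 0.05 and 2 (Dusp7 and Dusp16) with all null libraries higher, a share near the 22.6% of all genes. Dusp1, which acts mainly on JNK and p38, was the most abundant, with 38.6 and 38.7 CPM in the wt and 49.3, 32.6 and 129 CPM in the null libraries, followed by Dusp9 and Dusp10 (log2 fold changes 0.36 and 0.92). Of 3 other Sprouty and Spred genes, Spred2 was higher at an unadjusted p = 0.0336 (edgeR, log2 fold change 1.77, SE 0.66, adjusted p = 0.237), and all its null libraries were above both wt libraries. Spred3 and Spry3 had log2 fold changes of 1.05 and -0.50. Spred1 and Spred2 were thus above both wt libraries in every null library, while for Spred3 null 3 (8.45 CPM) lay under both wt 1 (20.3) and wt 2 (8.596).

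The 7 other ETS factors had a median of 0.30, with Erf, Ets2 and Elk3 the most abundant at -0.42, 0.43 and 0.53. Of 8 other inhibitors the median was 2.01, and 5 were higher and 0 lower at an unadjusted p under 0.05 (12.4% and 6.07% of all genes), named after their values were seen: Nf1, Rasa1, Il17rd, Rasal2 and Dab2ip. Nf1 encodes neurofibromin, the partner of Spred1, and had 4.22 and 3.94 CPM in the wt and 15.5, 22.4 and 13.4 CPM in the null libraries (log2 fold change 2.07, SE 0.57, adjusted p = 0.192, edgeR). The most abundant inhibitors were Pebp1 (-1.08), Errfi1 (-1.05) and Dab2ip (2.07). In TMM-normalized CPM, Pebp1 was below both wt libraries in all null libraries, as were 17.3% of all genes tested. In FPKM it was not, with 617 in null 3 against 597 in wt 1. In the 15 immediate early and later targets the median was 0.21 and 2 were higher at an unadjusted p under 0.05, with Ccnd1, Ier3 and Junb the most abundant at 0.21, -0.05 and 0.53. The 11 RAS, RAF, MEK and ERK genes had a median of 0.10 and 0 at that p, and the most abundant, Mapk3 and Map2k2, were at -0.34 and -0.47. Braf had 3.12 and 2.08 CPM in the wt and 4.07, 6.97 and 28.3 CPM in the null libraries (log2 fold change 2.33, SE 1.01, adjusted p = 0.276, edgeR), and the files do not separate the mutant from the normal allele. In 11 receptor tyrosine kinases the median was 1.58, all were above 0 (59.2% of all genes) and 3 were higher at an unadjusted p under 0.05 (12.4% of all genes), with Fgfr1, Pdgfrb and Erbb2 the most abundant at 1.55, 0.88 and 0.62. Fgfr1 had 47.6 and 53.1 CPM in the wt and 155, 151 and 138 CPM in the null libraries, a far narrower spread than any of the 10 ERK output and feedback genes had among the null lines.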

How the data were processed

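Total RNA of 5 cell line libraries was sequenced by the authors (TruSeq kit, Illumina). The tables they deposited hold an estimated count and an FPKM value for every RefSeq transcript with an FPKM of at least 0.01, and replicates are separate. The estimated counts that the authors deposited have decimals. The aligner, counting program, build and annotation are not given in the sources used here. Samples were grouped by their labels. Estimated counts and FPKM were summed per NCBI gene number, counts were rounded, and 17866 of 17923 genes were named from the RefSeq table of GRCm38.p6. Symbols were matched by gene number, and of the 10 genes only Spred1 had more than 1 transcript listed.

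The comparison of null with wt used edgeR 4.0.16 (R 4.3.3, TMM, filterByExpr with the 10 genes always kept, glmQLFit, glmQLFTest) over 13240 genes, and p-values were adjusted by Benjamini-Hochberg (threshold 0.05). TMM factors were 0.8417, 0.735, 1.085, 1.222 and 1.219 for wt 1, wt 2, null 1, null 2 and null 3. The 10 most abundant genes took 14.3%, 15.0%, 6.93%, 8.00% and 7.92% of counts in the same order. Single libraries were compared as log2 ratios of FPKM + 0.1, relative to the median gene. Single genes were compared with exact permutation tests, and the ratio of the wt counts with exact binomial intervals (Python 3.11.15, scipy 1.17.1). Alternatives were DESeq2 1.42.0, library totals, no filter, 10 counts in every library, limma 3.58.1 on log2 FPKM with 0.1, 0.01 or 1 added, the replicate number as a block, summed FPKM, the most abundant transcript alone, and each library left out. The fits were also run on simulated data, whose outcome is not reported here and is not used for any result. Genes and lists were chosen with earlier results of these data known. By rule the text names all 10 genes, up to 3 most abundant genes of each other list, Ctnnb1 and Braf, and the few others are named for small counts, once their values had been seen. The other genes of the lists are given as counts, and some genes are not reported here. Promoter sequences are from RefSeq, ended before the first start in RefSeq or GENCODE. Protein sequences were not used here.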

Additional observations from a re-analysis of the deposited data

How the results depend on the processing

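Across 130 fits of the 10 genes under alternatives, 0 gave a call. The lowest adjusted p was 0.123, for Spred1, and its values ran up to 0.841. All genes called moved more: DESeq2 called 1113 higher and 487 lower, limma on log2 FPKM called 1 higher with each of 0.1, 0.01 and 1 added and 5, 3 and 7 lower in that order, 4 were lower without the filter and 1 with at least 10 counts in every library, against 0 and 0. At an unadjusted p under 0.05, against 0 of the 10 in the fit reported, 1 passed in 8 of 13 alternatives: Spred1 with DESeq2, library totals, no filter, at least 10 counts, limma with 0.1 and 0.01 added and without null 1, and Phlda1 without null 3. In the fit reported, 12.4% of all genes were higher and 6.07% lower at that p. Shares of all genes in these alternatives are not given here. Using the most abundant transcript alone could alter only Spred1, since every other gene of the 10 had 1 transcript listed. Its FPKM went from 3.30 to 3.01 in wt 1 and from 28.86 to 28.61 in null 2. No value of Spred1 moved by more than the spread between libraries.

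Spry4, Spred1, Etv5 and Phlda1 stayed above 0 under all 13 alternatives to each, between 0.20 and 3.48, 0.71 and 2.48, 0.26 and 2.34, and 0.47 and 1.47 on the log2 scale. The lowest value of the first 3 was without null 2. Most of all genes tested were above 0 in each of these settings too, from 53.1% with the replicate number as a block to 77.6% with library totals. The share of all genes that stayed above 0 throughout is not given here. Other fold changes turned. Scaled to library totals, Dusp5 was 0.49, Spry1 0.12, Spry2 0.46 and Etv4 0.17. In limma with 0.1, 0.01 and 1 added, Dusp5 was 0.48, 0.48 and 0.46, Spry1 0.15, 0.15 and 0.14, and Spry2 0.090, 0.088 and 0.10. With at least 10 counts in every library Dusp5 was 0.024. Leaving out each library in turn gave ranges of -0.22 to 0.57 for Dusp4 (lowest without null 2), -0.77 to 0.65 for Dusp5, -1.81 to 0.55 for Dusp6 (above 0 without wt 1), -1.44 to 0.35 for Spry2 and -0.98 to 0.080 for Etv4. The median of the 10 lay between -0.20 (without wt 2) and 0.60 (without wt 1) when a library was left out, was -0.06 without null 2, and reached 0.68 with library totals. Over 11796 genes shared by the fits, the median was 0.21 with TMM, 0.13 with DESeq2, 0.79 with library totals and 0.61 with limma. Genes with all null libraries higher numbered between 1 and 3 when each library was left out (3 without wt 1 and without null 3), and those with all lower between 0 and 2 (2 without wt 2, 1 without null 2). Fewer libraries make such an order easier to meet, and the shares of all genes under these omissions are not given here. Without a wt library, the other wt library is assumed to vary as the null libraries do. The cause of other turns was not tested.

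With the replicate number as a block, Dusp5 was 0.29 and Etv4 0.11, and 0 genes were called. Deviations of same-numbered libraries from their group means had correlations of -0.088 and -0.088. With 2 wt libraries these deviations mirror each other, and null 3 has no partner, so the correlations cannot decide whether the numbers pair libraries. The numbers are used here as names. The biological coefficient of variation was 0.694, and all 10 genes were above 3 counts in every library. How far this variation limits the changes that 5 libraries can show was not tested.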
